A study of Mus musculus with 6 samples.

Results

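Mono-methylation of histone H3 at lysine 4 (H3K4me1) was mapped across the genome of untreated mouse macrophages and set against input DNA, the sequenced chromatin without precipitation. Both libraries, 2 of the 6 samples of the series, were taken by their titles. Chromosomes 1 to 19 and X were read in 10 kb bins, together with the 84743 intervals of the authors' H3K4me1 peak list on those chromosomes. The list held 84790 in all. The cells were bone marrow-derived macrophages of female Fvb mice on day 7 of differentiation, grown in medium conditioned by L929 cells, with no treatment in either group. Chromatin was fixed for 10 min in 1% formaldehyde, and H3K4me1 was precipitated with 10 µg of an Abcam antibody. H3K4me1 was compared with the authors' peak lists of PU.1 and p300 from untreated cells of the same kind, and the p300 list rests on 2 merged biological replicates. The series also holds PU.1 and p300 after 2 h of lipopolysaccharide (LPS), which is not described here. Nothing in the labels says how many mice gave a library, and each of H3K4me1, input and PU.1 had 1 library. No test between groups was therefore possible, and intervals cover counting error only. Expression was not measured in these samples and no gene annotation of build mm9, on which the files are, was used, so macrophage markers could not be checked and no gene is placed at a coordinate.

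H3K4me1 is laid down by the MLL3 and MLL4 methyltransferases on the nucleosomes beside enhancers and around the flanks of promoters, and it marks poised as well as active enhancers. PU.1, encoded by Spi1, is the ETS-family transcription factor needed for the macrophage lineage. It is known to open chromatin at enhancers of myeloid cells, where neighbouring nucleosomes then carry H3K4me1. p300 is a histone acetyltransferase found at active enhancers.

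The H3K4me1 library held 7162651 aligned reads and input 7332642. Reads at a position and strand already seen made up 14.8% and 17.3% of them, and 6100615 and 6055709 distinct reads on chromosomes 1 to 19 and X were used. Where a ratio of H3K4me1 to input is given, reads were first scaled to equal totals, so a ratio of 1 is the genome-wide mean and not the level of unmarked chromatin.

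The mark was concentrated in a small part of the genome. Of 218261 bins with at least 10 input reads, 11791 (5.4%) were higher in H3K4me1, meaning that the exact 95% interval of the ratio lay above 2. Another 68464 (31.4%) were lower, with the interval below 0.5. The higher bins held 45.3% of H3K4me1 reads and 10.4% of input reads. The lower bins held 2.41% of H3K4me1 and 25.9% of input reads. The median ratio over tested bins was 0.248, with quartiles of 0.11 and 0.701, and the 99th percentile stood at 5.37. No H3K4me1 read fell in 15376 of the tested bins. By the ratio alone, without its interval, 20708 bins (9.49%) were at 2 or more and 151055 (69.2%) at 0.5 or less. The split between higher and lower bins depended on the scaling. With libraries scaled instead on the 176527 tested bins that no H3K4me1 peak touched, whose median ratio was 0.186, all ratios rose by 2.43 on the log2 scale, 54722 bins were higher and 2 were lower. Higher bins were 14.7% of all bins called on the main scale and 100% on the other, after rounding.

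Ranked by their own reads, the first 1% of bins held 15.3% of H3K4me1 reads, the first 5% held 44.7% and the first 10% held 63.5%. The same shares of bins held 2.98%, 11.9% and 21% of input reads, so input was uneven too but far flatter. The bins that ranked in the first 10% by H3K4me1 held 19.4% of input reads, more than an even spread would give them.

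**Figure D1:**
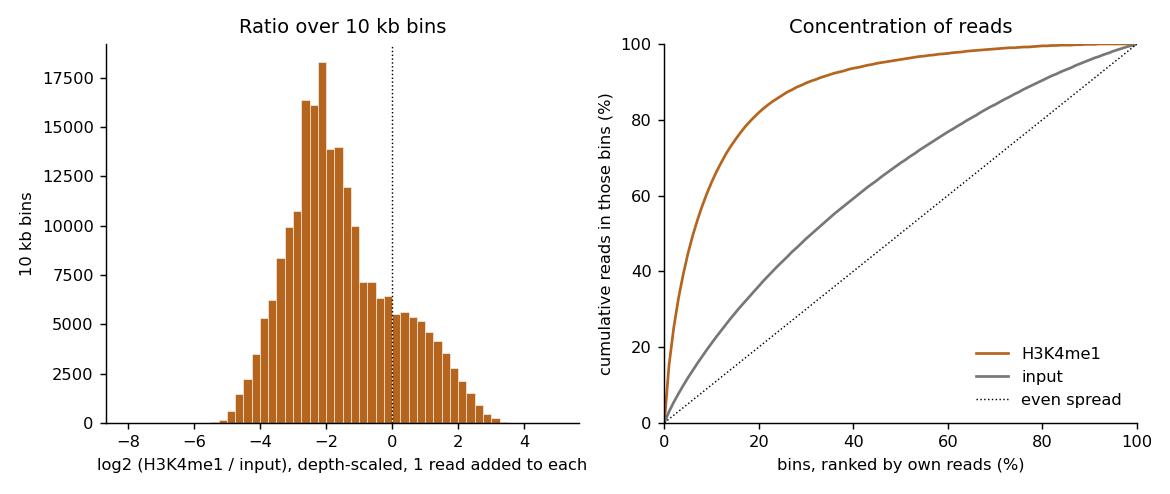
Left, number of 10 kb bins by the log2 ratio of H3K4me1 to input after depth scaling with 1 read added to each. Right, cumulative share of reads against the share of bins ranked by each library's own reads: the first 10% of bins hold 63.5% of H3K4me1 and 21% of input reads, and the dotted line is an even spread.

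Marked bins lay next to each other. Of the 11791 higher bins, 7011 (59.5%) had a higher bin as a direct neighbour, while 6.27% of the other tested bins had one. The higher bins formed 7187 runs, of which 4780 were single bins and 275 spanned at least 5 bins, and the longest reached 180 kb. Across bins, Pearson's r of the log2 ratios at a distance of 10 kb was 0.609 over 200556 pairs. It was 0.409 at 100 kb and 0.171 at 1000 kb. All pairs share the same 2 libraries, and neighbouring bins also share mappability and base composition, whose part in r was not tested.

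The highest ratios in bins with at least 20 input reads lay on 4 chromosomes. On chromosome 10, the bin from 79400001 to 79410000 had 526 H3K4me1 and 34 input reads, a ratio of 15.4 (exact 95% interval 10.9 to 22.4). The bin on chromosome 15 from 77660001 to 77670000 had more reads, 795 and 57, at a ratio of 13.8 (10.6 to 18.4). Next came chromosome 8 from 120060001 to 120070000 with 582 and 42 reads (13.8), chromosome 2 from 173080001 to 173090000 with 350 and 26 (13.4), and chromosome 15 from 63870001 to 63880000 with 581 and 44 (13.1). Their intervals overlapped, so the order among these 5 bins is not resolved at this depth. Each of them held 4 to 6 H3K4me1 peaks and 1 to 4 PU.1 peak centres.

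Chromosomes differed in how much of the mark they carried. Among the 19 autosomes the ratio to input ran from 0.816 on chromosome 3 (exact interval 0.812 to 0.82) to 1.32 on chromosome 11 (1.32 to 1.33), with chromosomes 19 (1.24) and 7 (1.19) next to the top and 18 (0.861) and 1 (0.896) next to the bottom. Chromosome X stood far below all of them at 0.404 (0.401 to 0.407). It held 1.69% of H3K4me1 reads and 4.19% of input reads. On X, 107 of 11027 tested bins (0.97%) were higher, against 5.64% on the autosomes, and 47.8% were lower, against 30.5%. H3K4me1 peaks numbered 11.6 per Mb of tested bins on X and 40.3 on the autosomes. Peaks on X were also narrower, with a median width of 487 bp against 649 bp, and had a median score of 82.7 against 112.

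Chromosome X was also lowest in PU.1 peaks, by a smaller factor. PU.1 peaks numbered 16.9 per Mb on X and 34.6 on the autosomes, so X had 0.488 times the PU.1 peak density of the autosomes and 0.288 times their H3K4me1 peak density. On the autosomes, PU.1 density was highest on chromosome 11 (44.8 per Mb) and 19 (43.7) and lowest on 3 (27.7). The mark was lower on X also around PU.1 peaks themselves. Within 1 kb on each side of the 1862 PU.1 peak centres on X, H3K4me1 was at 2.27 times input (2.23 to 2.32), and around the 71638 on the autosomes it was at 3.63 times (3.62 to 3.64). PU.1 peaks were somewhat weaker on X, with a median score of 110 against 124. In each of 4 equal classes of PU.1 scores X lay below the autosomes, with 2 against 2.88 in the weakest 25% and 2.98 against 4.6 in the strongest. Marked domains are H3K4me1 peaks joined across gaps of up to 5 kb. The share of PU.1 peaks that overlapped one was 27% on X (25 to 29.1) and 53.3% on the autosomes (52.9 to 53.6). Bins of the same H3K4me1 ratio carried PU.1 about as often on X as on autosomes. At a ratio of 2 to 4, a PU.1 centre lay in 91.1% of 246 bins on X (86.8 to 94.3) and in 88.7% of 14941 on the autosomes (88.2 to 89.2). Only below a ratio of 0.25 were the intervals apart, with 2.74% (2.4 to 3.13) and 3.54% (3.43 to 3.66). Input was slightly thinner on X, with a median of 20 reads per tested bin against 24, and the part of input depth in these differences was not tested.

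**Figure D2:**
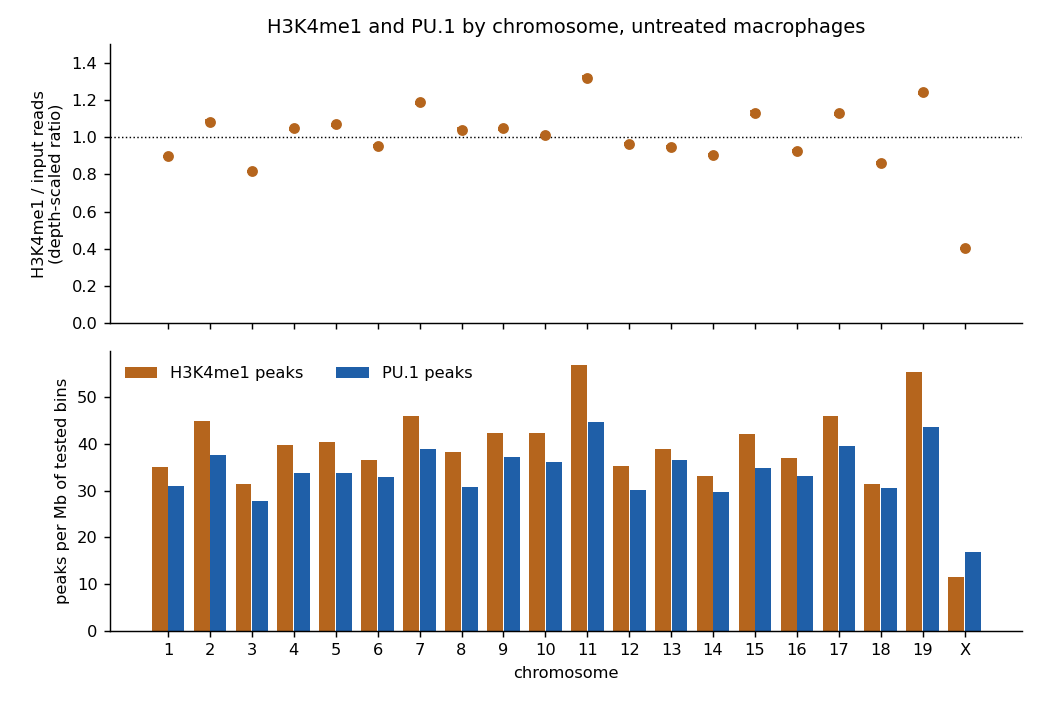
Top, depth-scaled ratio of H3K4me1 to input reads for each chromosome, with exact 95% intervals that are smaller than the points. Bottom, H3K4me1 and PU.1 peaks per Mb of tested 10 kb bins. Chromosome X is lowest in all 3 measures, at 0.404, 11.6 and 16.9.

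At a scale of 1 Mb, marked and nearly bare stretches were both found. Over 2511 windows with at least 500 input reads the ratio ranged from 0.0692 to 3.72 with a median of 0.665. In 673 windows (26.8%) it was at most 0.25, and those held 2.27 PU.1 peaks per Mb. In 135 windows (5.38%) it was at least 2, and those held 74.3. On X, 108 of 146 windows had a ratio of at most 0.5.

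The longest stretches without an H3K4me1 peak were several Mb long. The longest lay on chromosome X from 114883854 to 126283623, 11.4 Mb with 1020 H3K4me1 and 9469 input reads (ratio 0.107, 0.1 to 0.114). On chromosome 1, 10.7 Mb from 109506661 to 120219243 held 1483 and 13985 reads (0.105), and on chromosome 14 the stretches from 87972741 to 97427362 (9.45 Mb) and from 106593136 to 115268252 (8.68 Mb) had ratios of 0.0892 and 0.0945. In these 4, 44.5% to 79.8% of the bins had at least 10 input reads, so input was present over much of their length. The stretch on X from 23275501 to 33433979 (10.2 Mb) was of another kind: only 3.84% of its 1015 bins passed that minimum, so the lack of peaks there cannot be told apart from lack of reads. It held 253 H3K4me1 and 1014 input reads, a ratio of 0.248 (0.215 to 0.285), above that of the other 4. PU.1 peaks numbered 0.314 to 0.634 per 1000 input reads in those 4 and 3.94, from 4 peaks, in this one. Per Mb the 5 stretches held 0.394 to 0.529.

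The H3K4me1 peaks covered 72.8 Mb and held 55.2% of H3K4me1 and 7.9% of input reads. They were called on these reads against this input, so that excess describes the list. Median width was 646 bp, with quartiles of 440 and 1023 bp. Of all peaks, 5037 were wider than 2 kb and 227 wider than 5 kb. The widest, chosen after its values were seen, lay on chromosome 10 from 127023849 to 127043503. It ran unbroken over 19655 bp with 1946 H3K4me1 and 191 input reads (ratio 10.1, 8.71 to 11.8), and it overlapped 5 PU.1 and 5 p300 peaks.

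Peaks were strongly clustered along the chromosomes. The median gap between neighbours was 2019 bp, while the mean gap was 29271 bp. Gaps of up to 1 kb made up 41.6% of the 84723 gaps, and gaps of up to 5 kb made up 62.9%. At the other end, 3387 gaps (4%) over 100 kb added up to 1765 of the 2480 Mb between peaks. On a log scale, gap lengths had a broad maximum around 5 to 10 kb and a lower one near 100 bp.

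PU.1 peak centres were densest in the shortest of these gaps. In the 23112 gaps of up to 250 bp they numbered 724 per Mb, against 383 per Mb inside H3K4me1 peaks. Density fell with each longer class of gap: 490 per Mb at over 250 to 500 bp, 296 at over 500 to 1000 bp, 158 at over 1 to 2 kb and 72.5 at over 2 to 5 kb. Counted per 1000 input reads in place of length, the order was the same, with 151 centres in gaps of up to 250 bp, 98.2 at over 250 to 500 bp and 58.3 inside peaks. Peak edges were set by the caller on the H3K4me1 reads, so the low H3K4me1 ratio inside the shortest gaps (0.589) is not a separate result, whereas the PU.1 list comes from another library. Short gaps with a PU.1 centre were still a minority: 1436 of 23112 (6.21%, exact 95% interval 5.91 to 6.53) at up to 250 bp, and 1299 of 6184 (21%, 20 to 22) at over 500 to 1000 bp.

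**Figure D3:**
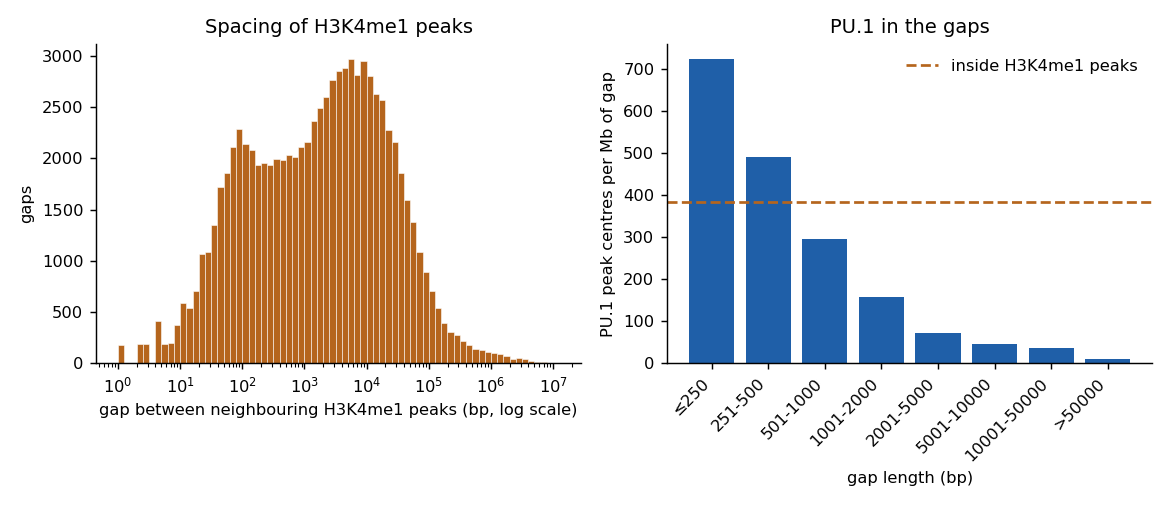
Left, number of gaps by length between neighbouring H3K4me1 peaks, on a log scale. Right, PU.1 peak centres per Mb of gap by gap length, falling from 724 in gaps of up to 250 bp, with the density inside H3K4me1 peaks (383 per Mb) as a dashed line.

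Seen from PU.1, 27865 of 73500 peak centres (37.9%) lay inside an H3K4me1 peak and a further 10883 (14.8%) within 500 bp of one. Beyond that, 3116 (4.24%) lay 500 to 1000 bp away, 7751 (10.5%) at 1 to 5 kb, 17193 (23.4%) at 5 to 50 kb and 6692 (9.1%) farther out. Seen from the mark, 38773 H3K4me1 peaks (45.8%, 45.4 to 46.1) overlapped a PU.1 peak by at least 1 bp. The share was 25.9% (25.3 to 26.5) in the narrowest 25% of H3K4me1 peaks and 71.8% (71.2 to 72.4) in the widest. It rose in the same way with the authors' score, from 26.7% in the weakest 25% to 73.3% in the strongest. Wide peaks have more room: overlapping PU.1 peaks per kb of H3K4me1 peak fell from 0.76 in the narrowest to 0.471 in the widest 25%. PU.1 peaks had a median width of 379 bp, so overlaps at the edges weigh most in narrow H3K4me1 peaks. This fall is therefore no measure of how PU.1 density changes with width. p300 peaks of untreated cells overlapped 10.2% of H3K4me1 peaks.

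There were 31420 marked domains in all. They covered 128 Mb, 5.88% of the length of the tested bins, and held 62.1% of H3K4me1 and 12.5% of input reads. Domains were mostly small, with a median width of 1518 bp and quartiles of 595 and 5056 bp, and 14009 (44.6%) consisted of 1 peak. A long tail reached much farther. There were 3424 domains over 10 kb and 67 over 50 kb, and 1054 held at least 10 peaks. The 314 domains (1%) with most reads held 13.7% of all H3K4me1 reads in domains, and the 3142 (10%) with most reads held 51.2% on 44.6% of the domain length. Large domains were found on every chromosome: those of at least 10 peaks numbered 98 on chromosome 2, 80 on 11 and 78 on 1, and 9 on X. Chromosome 11 had 11 of the 67 over 50 kb, and chromosomes 19 and X had 0. The pooled ratio to input was 6.71 in domains of 1 peak, which hold no gap, 4.57 to 4.82 in those of 2 to 9 peaks and 5.26 in those of at least 10.

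The domain with most H3K4me1 reads lay on chromosome 14 from 26281169 to 26354991. It was 73.8 kb wide and held 4746 H3K4me1 and 552 input reads, a ratio of 8.53 (7.81 to 9.34), and 88.6% of its length was inside one of 22 peaks. That share was the highest among the 17 domains named here, and 15 PU.1 and 4 p300 peaks lay in it. Second by reads and widest of all was the domain on chromosome 5 from 136912054 to 137039884. Its 128 kb held 62 peaks, 4548 H3K4me1 and 780 input reads (ratio 5.79, 5.36 to 6.25), with 13 PU.1 peaks. The domain on chromosome 2 from 90314821 to 90430135 was built alike, with 62 peaks over 115 kb, 4038 and 775 reads (5.17, 4.79 to 5.59) and 19 PU.1 peaks. These 2 widest domains had 56.3% and 59.1% of their length in peaks, close to the 56.8% over all domains.

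Narrower domains with higher ratios than these 2 were found on chromosomes 4, 15 and 10. On chromosome 4, from 138742694 to 138815921, 3908 H3K4me1 and 532 input reads over 73.2 kb gave a ratio of 7.29 (6.66 to 8), with 77.6% of the length in 19 peaks and 16 PU.1 peaks. The domain on chromosome 15 from 77627733 to 77687865 had the highest ratio among the 10 with most reads, 8.94 (8.03 to 9.97), from 3395 and 377 reads over 60.1 kb. It also contains the bin with the second highest ratio given above. On chromosome 10, from 127013556 to 127092287, the domain around the widest single peak held 3661 and 552 reads (6.58, 6.02 to 7.21), 15 PU.1 and 8 p300 peaks.

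The other 4 of the 10 with most reads lay on chromosome 11 from 8456748 to 8544816 (3507 H3K4me1 reads, ratio 6.24, 15 PU.1 peaks), chromosome 14 from 66826897 to 66901707 (3479, 7.32, 13), chromosome 8 from 129338140 to 129411784 (3387, 5.74, 13) and chromosome 15 from 58828490 to 58912160 (3235, 5.71, 12). The one on chromosome 8 overlapped 12 p300 peaks, the most among these 10. By width, 8 of the 10 widest were among the same 10. The remaining 2 lay on chromosome 6 from 97747273 to 97823636 (76.4 kb, ratio 4.62) and chromosome 4 from 144801031 to 144876896 (75.9 kb, 5.33). Input ran at 6.1 to 7.96 reads per kb in the 10 domains with most reads, which include the gaps between their peaks. Over all domains it was 6.57 inside H3K4me1 peaks and 5.02 between the peaks of a domain.

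Most marked domains held PU.1. An untreated PU.1 peak overlapped 22747 of 31420 domains (72.4%, exact 95% interval 71.9 to 72.9). The share was 51.9% (51.1 to 52.8) among domains of 1 peak, 79.9% (78.9 to 80.8) for 2 peaks, 91.6% (90.9 to 92.3) for 3 or 4 and 98.6% (98.2 to 99) for 5 to 9. Counted by PU.1 centres inside the domain, these shares were 40.5%, 75.6%, 90% and 98.4%, so overlaps at the edges weigh most in small domains. All 1054 domains of at least 10 peaks held PU.1 (lower bound 99.7%), with 5.7 PU.1 peaks each on average. A wider domain has more room for a PU.1 peak, and PU.1 centres per Mb of domain fell from 613 in domains of 1 peak to 368, 273, 227 and 202 in the larger classes. Even the last value was above the density outside domains. PU.1 centres numbered 40.7 per Mb within 10 kb of a domain, 22.1 at 10 to 50 kb and 4.43 farther away. Input fell along the same order, from 6.57 reads per kb in H3K4me1 peaks to 3.55, 2.63 and 1.48 in these 3 outer zones. Per 1000 input reads the PU.1 centres still fell from 58.3 in H3K4me1 peaks and 29.1 between the peaks of a domain to 11.4, 8.41 and 2.99.

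Counted over bins, which are of equal width, PU.1 rose with the amount of H3K4me1. A PU.1 centre lay in 3.49% of the 111269 bins with a ratio under 0.25 (3.38 to 3.6), in 43.2% of those at 0.5 to 1 (42.6 to 43.9), in 88.7% at 2 to 4 (88.2 to 89.2) and in 97.5% of the 314 bins at 8 or more (95 to 98.9). Over all tested bins the share was 25.2%. Bins with more H3K4me1 also had more input, with a median of 20 reads in the lowest class and 59 in the highest. The part of input depth in this trend was not tested.

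**Figure D4:**
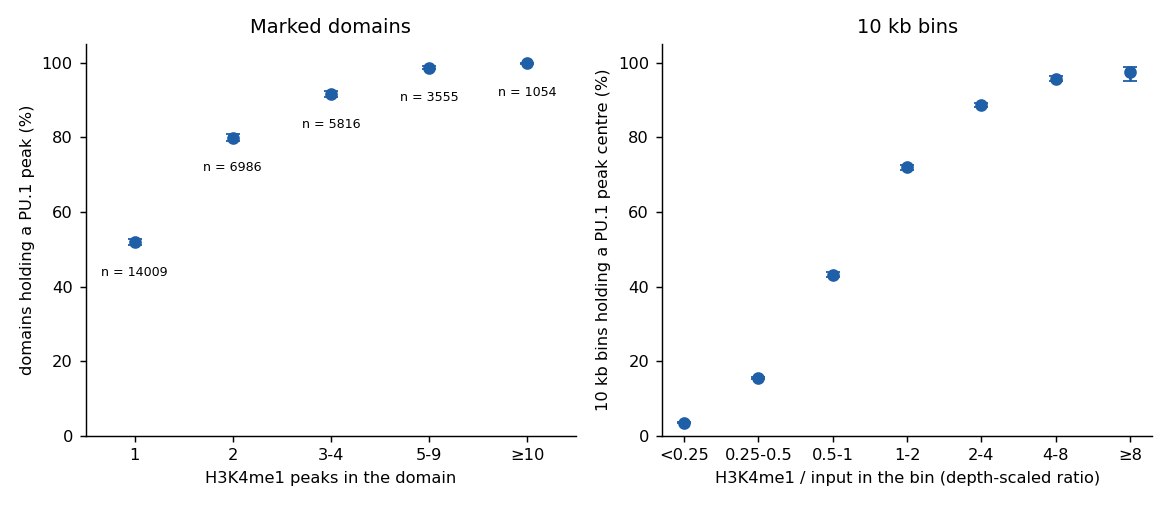
Left, share of marked domains that hold a PU.1 peak by the number of H3K4me1 peaks in the domain, from 51.9% for 1 peak to all 1054 domains of at least 10. Right, share of 10 kb bins with a PU.1 peak centre by the depth-scaled ratio of H3K4me1 to input, from 3.49% to 97.5%. Bars are exact 95% intervals.

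By number, most PU.1 peaks lay in the domain on chromosome 11 from 117796446 to 117862580. It held 20 PU.1 and 9 p300 peaks over 66.1 kb, with 3140 H3K4me1 and 493 input reads (ratio 6.32, 5.75 to 6.97). On chromosome 6, from 87444570 to 87504670, 18 PU.1 peaks lay in 60.1 kb (ratio 5.66, 5.1 to 6.29). Their density, 3.02 and 2.99 PU.1 peaks per 10 kb, was about the mean over all domains (3.01). That mean includes domains of 1 peak, at 0.789 overlapping PU.1 peaks per kb. Domains of at least 10 peaks, to which both belong, held 0.203 per kb. Both were chosen by their number of PU.1 peaks, so a density above that of their size class is no separate result. The domains on chromosome 2 from 90314821 and chromosome 4 from 138742694 came between and after them, with 19 and 16. The next place was shared by 5 domains of 15 PU.1 peaks, among them those named above on chromosome 14 from 26281169, chromosome 10 from 127013556, chromosome 11 from 8456748 and chromosome 4 from 144801031.

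The 8673 domains without a PU.1 peak were small. Their median width was 546 bp, against 2664 bp for those with PU.1, and 77.6% of them were single peaks, against 32%. All marked domains consist of peaks called on these H3K4me1 reads against this input, so similar ratios at matched width are partly built in. At over 500 to 1000 bp the pooled H3K4me1 ratio was 6.47 (6.33 to 6.61) without and 6.17 (6.06 to 6.28) with PU.1, and at over 2 to 5 kb it was 4.51 (4.41 to 4.61) and 5.09 (5.05 to 5.12). The order of the pooled ratios thus turned with width. Neither of these pairs of intervals overlapped, but they cover counting error on pooled reads and not the spread among domains. Between these widths, at over 1 to 2 kb, the intervals did overlap, with 6.15 (6 to 6.29) without and 6.19 (6.12 to 6.26) with PU.1. In the narrowest class, up to 500 bp, the ratio was 8.83 without and 8.01 with PU.1, and at over 5 to 10 kb it was 3.82 and 4.42. Input was higher at PU.1 centres, and its part in this order was not tested. The nearest PU.1 centre was a median of 4752 bp from the middle of these domains. The PU.1 library stood at 1.29 times input (1.28 to 1.31) over domains without a PU.1 peak. It was at 1.63 in those of up to 500 bp and 1.07 in those of over 5 to 10 kb. Over domains with PU.1 it stood at 3.91 times (3.9 to 3.92). The 155232 tested bins with neither an H3K4me1 nor a PU.1 peak were at 0.381 times (0.38 to 0.382). All these groups were sorted by PU.1 peaks of the same library, so the distance of 3.91 from the other values is built in. Domains were called against the same input and differ in width from 10 kb bins. Whether 1.29 against 0.381 reflects PU.1 was therefore not tested. At matched width p300 was also less frequent without PU.1: 1.44% of domains of over 500 to 1000 bp overlapped a p300 peak (1.03 to 1.96), against 5.36% with PU.1 (4.64 to 6.15), and at over 2 to 5 kb the shares were 6.26% (4.53 to 8.4) and 21.9% (20.8 to 23.1).

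A few domains without PU.1 were larger. The one with most reads lay on chromosome 9 from 56716745 to 56725148, with 387 H3K4me1 and 34 input reads over 8.4 kb. Its ratio of 11.3 (7.95 to 16.6) was above that of each of the 10 domains with most reads, although its interval reached below the highest of them, and it overlapped 1 p300 peak. Next came chromosome 16 from 3885821 to 3894957 (298 and 53 reads, ratio 5.58) and chromosome 11 from 118943601 to 118952828 (290 and 50 reads, 5.76), neither with a p300 peak. In all, 203 domains without PU.1 were wider than 5 kb, and the widest measured 13067 bp.

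PU.1 peaks in marked domains had higher scores. Of 73500 PU.1 peaks, 38658 (52.6%, 52.2 to 53) overlapped a marked domain, with a median score of 167, and the 34842 outside had 97.8. In 4 equal classes of PU.1 score the share inside a domain was 38% (37.3 to 38.7), 41.1% (40.3 to 41.8), 55.4% (54.6 to 56.1) and 75.9% (75.3 to 76.5) from weakest to strongest. H3K4me1 within 1 kb of the centre rose with them, from 2.86 times input in the weakest 25% to 4.57 times in the strongest.

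Around PU.1 peak centres, H3K4me1 formed 2 shoulders with a dip between them. Over all 73500 PU.1 peaks the mark was highest 200 to 300 bp from the centre, at 3.98 RPKM (reads per kb, scaled to library depth), and stood at 3.37 within 100 bp of the centre and at 1.35 at 2500 to 3000 bp. Input moved the other way at the centre: it was 1.15 there, 0.962 at the shoulder and 0.659 far out. Set against input, H3K4me1 was at 2.92 times at the centre, 4.14 at the shoulder and 2.05 far out. The dip was deeper at stronger PU.1 peaks. Centre level as a share of the shoulder was 0.947 in the weakest 25%, 0.931 and 0.867 in the next ones and 0.732 in the strongest, where the shoulder reached 6.02. The shoulder lay 100 to 200 bp from the centre in the 2 weaker classes and 200 to 300 bp in the 2 stronger. Centres are midpoints of the authors' PU.1 peaks, and profiles average over sites that are not replicates.

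PU.1 peaks outside marked domains, which were set apart by the H3K4me1 list itself, showed 1 low summit of H3K4me1 reads without a dip. H3K4me1 was 1.32 within 100 bp of their centre and 0.519 far out, and input was 0.988 and 0.539. At these sites H3K4me1 was therefore at 1.33 times input at the centre and 0.963 times far out, on the scale where the median 10 kb bin is at 0.248. At 200 to 300 bp on either side H3K4me1 was 1.15 and 1.16, and input was 0.784 and 0.783. Set against input, the mark was thus lower at the centre than at that distance.

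**Figure D5:**
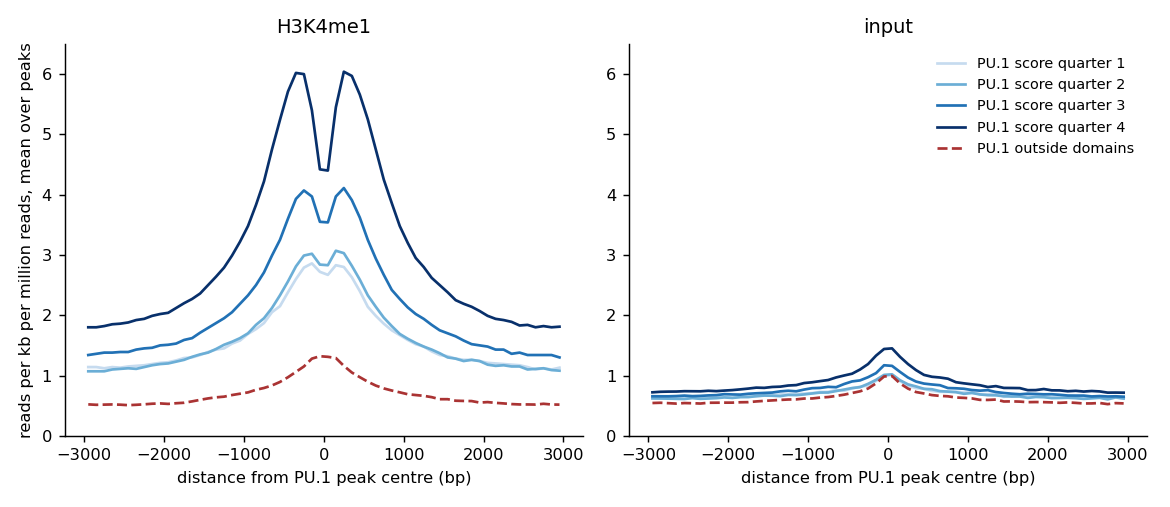
Mean H3K4me1 (left) and input (right) reads per kb, scaled to library depth, against distance from PU.1 peak centres in bp, in steps of 100 bp, for 4 equal classes of the PU.1 score from weakest to strongest and for PU.1 peaks outside marked domains. H3K4me1 dips at the centre of the strongest class (4.41 against 6.02 at the shoulder) where input rises to 1.44.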

How the data were processed

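Aligned reads and peak lists of ChIP-seq libraries on mouse build mm9 (per the submitters' processing notes) were used. The aligner is not given in the sources used here. The authors called H3K4me1 peaks with MACS against input, per the file headers. Each deposited peak score is a log10 p-value times minus 10, and the lowest was 50. The p300 list was called against a control that its header names only as naked. On the list labelled as untreated PU.1, the header names LPS. The 14147 peaks found in it alone held 205566 untreated and 112877 LPS reads of PU.1, and the 15146 of the LPS list alone held 99885 and 209131, so it was used as labelled. The authors' read files hold the position and strand of each read, per the deposited column description.

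Counts were made here with Python 3.11.15, numpy 2.4.6, pandas 2.3.3 and scipy 1.17.1. Read starts were moved 100 bp downstream, and 1 read was kept per position and strand. Libraries were scaled to their reads on chromosomes 1 to 19 and X. Ratios carry exact (Clopper-Pearson) 95% intervals conditional on the sum of both libraries. PCR reads are not independent molecules, so intervals cover counting error only. Each library had 1 replicate, and no p-value was computed. In 218261 simulated bins, 82 of 100 with a 4-fold ratio and all 100 with an 8-fold ratio were called higher, and 10 of 218061 unchanged bins were called. Unchanged bins were drawn at a ratio of 1 with counting error only. The count of 10 therefore gives no rate of false calls in the real bins, whose median ratio was 0.248.

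Overlaps are of at least 1 bp unless the centre of a PU.1 peak is named. Named regions were the 10 domains with most H3K4me1 reads, the 10 widest, the 5 with most PU.1 peaks (ties by reads), the 3 with most reads among those without PU.1, the 5 bins with the highest ratio (at least 20 input reads) and with most input reads, and the 5 longest stretches without a peak. The members, groups and rules were chosen with earlier results of these data known. Planned values at genes and transcription starts were left out, since no annotation of mm9 was used here. Alternative scalings, filters, gap lengths and overlap rules were tried.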

Additional observations from a re-analysis of the deposited data

How the results depend on the processing

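No paired analysis was possible because H3K4me1, input and PU.1 had 1 library each. Counts of 10 kb bins were those most open to choice. Bins higher in H3K4me1 numbered 11791, and became 54722 with scaling by bins without a peak, 6579 with 20 kb bins (121135 wider bins tested) and 20708 where the ratio itself reached 2. Bins lower numbered 68464, and became 2 with scaling by bins without a peak, 42153 with at least 20 input reads (142768 bins tested) and 151055 where the ratio itself was at most 0.5. With all reads kept, reads moved 50 bp or at least 5 input reads, both counts stayed within 1.5 times.

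Domains numbered 42475 and 22655 with gaps up to 2 and 10 kb and 22116 with H3K4me1 scores of at least 100. Their median width of 1518 bp became 2405 bp with gaps up to 10 kb. H3K4me1 reads in domains were 58% and 66.9% with gaps up to 2 and 10 kb (62.1% at 5 kb). The share of domains holding PU.1, 72.4%, was 65.4% and 76.2% with gaps up to 2 and 10 kb, 77.9% with H3K4me1 scores of at least 100, 59.3% with PU.1 scores of at least 100 and 66% with the PU.1 centre inside. PU.1 peaks inside a domain, 52.6%, were 50.1% and 55.7% with gaps up to 2 and 10 kb. The share of H3K4me1 peaks with PU.1, 45.8%, was 31% with the PU.1 centre inside, 60.7% within 500 bp, 58.8% with H3K4me1 scores and 34.9% with PU.1 scores of at least 100.

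The ratio of chromosome X was 0.403 with all reads kept, and no chromosome moved by more than 0.01. The 17 named domains kept ratios within their intervals with all reads kept and with reads moved 50 bp, and all were multiplied by 5.37 with scaling by bins without a peak. Alternatives chosen after seeing the data were a shift of 75 or 50 bp for the dip at PU.1 centres, PU.1 scores of at least 100 for short gaps, and all reads kept for PU.1 in domains without it. Centre over shoulder, 0.847 for all PU.1 peaks, was 0.836 at 75 bp and 0.838 at 50 bp, and 0.732 in the strongest 25% was 0.713 at both. PU.1 centres in gaps of up to 250 bp numbered 592 per Mb, against 274 inside H3K4me1 peaks. PU.1 over input in domains without PU.1 was 1.19. Values at gene groups, with windows of 5 and 20 kb as alternatives, were not run because no annotation of mm9 was used here. At 24 input reads in the median bin, ratios of single bins are imprecise.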

Other observations

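The 5 bins with most input reads, chosen on the denominator of the ratio, had H3K4me1 ratios of 0.308 to 0.943, all above the median bin (0.248). On chromosome 17, from 39980001 to 39990000, 1194 input and 370 H3K4me1 reads gave a ratio of 0.308 (0.273 to 0.346), and on chromosome 2, from 98500001 to 98510000, 867 and 293 gave 0.335 (0.293 to 0.383). The next 3 lay side by side on chromosome 11, from 3050001 to 3080000, with 402, 381 and 386 input reads, against a median of 24 per tested bin, and ratios of 0.943 (0.818 to 1.09), 0.472 and 0.674. PU.1 peak centres were called in 4 of these 5 bins and an H3K4me1 peak in 1.

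Outside chromosomes 1 to 19 and X, the share of H3K4me1 reads was not above the share of input reads. The mitochondrial genome, which carries no histones, held 9 distinct H3K4me1 reads (0.000147%, exact 95% interval 6.74e-05 to 0.00028) and 2822 input reads (0.0465%, 0.0448 to 0.0483). Other unplaced sequences held 0.0605% of H3K4me1 and 0.109% of input reads, and 47 H3K4me1 peaks were called on them. On the sequence chr1_random, with 16 of those peaks, the shares were 0.0169% in both libraries. Equal shares stand for the genome-wide mean and not for unmarked chromatin, since the median tested bin had a ratio of 0.248.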
